A study of Mus musculus with 18 samples.

Results

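The response of the ovary to 44 hours of gonadotropin was measured in Pik3cd+/- female mice, 21 days old at the injection, on a C57B6J/S129 background. The 6 arrays described here are 3 from Pik3cd+/- ovaries after PMSG and 3 from untreated Pik3cd+/- ovaries, chosen by the sample titles, out of 18 arrays in the series. Each treated mouse had received a single intraperitoneal dose of 10 IU PMSG. The untreated ovaries were taken at 21 days of age, and no vehicle-injected mice were among the groups, so the effects of PMSG, of the injection and of 44 further hours of age cannot be told apart. The other groups of 3 arrays that are used here for comparison were Pik3cd+/- ovaries 72 hours after the first of 3 daily injections of E2, the usual abbreviation of oestradiol (0.03 ml each, 24 hours apart), Pik3cd-/- ovaries after PMSG and untreated Pik3cd-/- ovaries. All arrays of the main comparison carried 1 disrupted copy of Pik3cd, which encodes the delta catalytic subunit of class I phosphoinositide 3-kinase, so neither arm was wild type. The labels call the replicates biological but do not say how many animals gave 1 array.

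PMSG is a serum gonadotropin that binds the receptor for follicle-stimulating hormone (FSH) and, in rodents, also that for luteinizing hormone. Both receptors raise cyclic AMP, granulosa cells of growing follicles then proliferate and make oestrogen, and theca cells around the follicle supply the androgen it is made from. The immature rodent ovary holds many small follicles and no corpora lutea, which is why a single dose is used to bring a cohort of follicles to the antral stage at about the same time. Oocyte RNA in a whole ovary comes from the oocytes of all follicles, including the many small ones that do not respond.

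Total RNA was hybridised to Affymetrix Mouse Genome 430 2.0 arrays. Signals are linear intensities, changes are differences of log2(signal + 8.58) given ± SE of the limma fit, and a gene was called at an adjusted p under 0.05 over 12712 tested genes. Array medians ran from 48.4 to 50.1 units in the PMSG arrays and from 49.9 to 50.2 in the untreated arrays, and each of the 6 arrays correlated with the other two of its group at a mean r of 0.981 to 0.992. All 10 markers fixed for ovary passed the filter on low signals. The granulosa gene Inha, for example, gave 10294, 10150.4 and 13422 in the PMSG arrays, against 11440.4, 11599.9 and 12032 in the untreated arrays. The brightest probe set for Pik3cd gave 3403, 4833 and 3680.0 in the PMSG arrays, against 3064, 2658 and 3622 in the untreated arrays (0.34 ± 0.14, adjusted p = 0.102), so the gene was not called. Of its 6 probe sets this one does not separate the genotypes, but another does, at 61.4 to 71.7 in the 6 Pik3cd+/- arrays, against 20.4 to 28.8 in the 6 arrays of the same treatments in Pik3cd-/- ovaries. So does a dimmer one, at 18.2 to 26.7 against 12.3 to 14.1. A further dim probe set, which does not separate the genotypes, was called higher after PMSG in Pik3cd+/- ovaries (limma, 0.42 ± 0.10, adjusted p = 0.0102). The brighter of the probe sets that separate them was not called (limma, 0.05 ± 0.11, adjusted p = 0.779).

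After PMSG, limma called 737 genes higher, which is 5.80% of the genes tested, and 1515 lower, which is 11.9%. At an unadjusted p under 0.05 there were 4215 genes (33.2%) and at the adjusted threshold 2252 (17.7%). Of the called genes, 124 (0.975%) were at least 2-fold higher and 69 (0.543%) at least 2-fold lower. The single arrays of the groups did not overlap in 1915 genes that were higher (15.1%) and in 3166 that were lower (24.9%). The median change over all genes tested was -0.05, beside which the medians of the gene lists can be read. Counts of called list members can likewise be read beside the shares of 5.80% higher and 11.9% lower. Calls changed when 1 of the 6 arrays was left out: 320 to 666 genes were then called higher and 548 to 1736 lower. In all of those fits 262 of the higher and 472 of the lower genes were called. Each such fit also has fewer arrays, and the part of lost precision in the lost calls was not tested. The lowest counts came without untreated replicate 1 (320 higher and 548 lower), and low counts also came without PMSG replicate 1 (431 and 731), PMSG replicate 2 (453 and 680) and untreated replicate 2 (426 and 734). For named genes whose call ended when 1 array was left out, the arrays are given with the gene or for several genes together.

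Some genes that make cholesterol, and some that turn it into progestins and androgens, were called higher after PMSG, and no tested gene of either list was called lower. Of 11 tested genes of steroid synthesis, 4 rose and 0 fell, with a median change of 0.68. Cyp11a1, which cleaves the cholesterol side chain to give pregnenolone, had signals of 5500.3, 8459.7 and 7993 in the PMSG arrays, against 881, 1132 and 2004 in the untreated arrays (2.50 ± 0.46, adjusted p = 0.00315). Fdx1, the ferredoxin that passes electrons to Cyp11a1, had 6069, 8553 and 7659 in the PMSG arrays, against 2382, 2228 and 2669.9 in the untreated arrays (1.60 ± 0.18, adjusted p = 0.000211). Cyp17a1, the theca enzyme that makes androgens, had 3544, 3257 and 5809.9 in the PMSG arrays, against 315, 664 and 417 in the untreated arrays (3.17 ± 0.61, adjusted p = 0.00397). In all 3 genes every PMSG array lay above every untreated array. Star, which carries cholesterol into mitochondria, had 198, 2011 and 384 in the PMSG arrays, against 155, 104 and 88.0 in the untreated arrays, highest in PMSG replicate 2 (2.17 ± 0.56, adjusted p = 0.017). Without that array its change was 1.23 (adjusted p = 0.0405), and its call ended without untreated replicate 2 (adjusted p = 0.0533).

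The other steroid genes did not pass the test. Hsd3b1, which makes progesterone, was already bright before treatment and gave 10394, 11814 and 13332 in the PMSG arrays, against 9842, 10059 and 10655 in the untreated arrays (0.21 ± 0.13, adjusted p = 0.29). Hsd17b1, the granulosa enzyme that reduces oestrone to oestradiol, gave 2579, 2467 and 5846 in the PMSG arrays, against 3241, 2899 and 2871 in the untreated arrays (0.15 ± 0.39, adjusted p = 0.816). Only PMSG replicate 3 stood above the untreated arrays, and without it the difference was -0.25. Hsd17b7, which acts both on oestrone and in cholesterol synthesis, was brightest in PMSG replicate 2, at 432, 2062 and 594 in the PMSG arrays, against 421, 410.3 and 371 in the untreated arrays (1.00 ± 0.41, adjusted p = 0.0976). Cyb5a, the cytochrome that aids androgen synthesis, differed by 0.06 and the mitochondrial outer membrane protein Tspo by 0.42 (adjusted p = 0.747 and 0.128). Akr1c18, which inactivates progesterone, was dim in all 6 arrays (0.68 ± 0.29, adjusted p = 0.108).

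Of 17 tested genes of cholesterol synthesis, 9 rose and 0 fell, with a median of 0.62, and all 17 had a change above 0. Cyp51, the lanosterol demethylase, had 291, 354 and 389 in the PMSG arrays, against 186, 199 and 197 in the untreated arrays (0.79 ± 0.14, adjusted p = 0.0022). The sterol desaturase gene Sc5d had 1005, 1577 and 1379 in the PMSG arrays, against 698, 805 and 691 in the untreated arrays (0.82 ± 0.14, adjusted p = 0.00225). Neither gene overlapped between the groups. Msmo1, a methylsterol oxidase, gave 1333, 1818 and 2324 in the PMSG arrays, against 857, 689 and 975 in the untreated arrays (1.09 ± 0.25, adjusted p = 0.00895). The sterol reductase gene Tm7sf2 rose by 1.00 and the sterol dehydrogenase gene Nsdhl by 0.62 (adjusted p = 0.00574 and 0.00701). Genes of the early, isoprenoid part of the pathway also rose. Idi1, the isopentenyl diphosphate isomerase, changed by 0.98 ± 0.25, adjusted p = 0.0167, Hmgcs1, the cytosolic HMG-CoA synthase, by 0.71 ± 0.21, adjusted p = 0.0312, and Fdps, which makes farnesyl diphosphate, by 0.61 ± 0.20, adjusted p = 0.0494. Dhcr7, the reductase of the last step, changed by 0.79 ± 0.23, adjusted p = 0.0259. The calls of these 4 ended without 1 or more of PMSG replicates 2 and 3 and untreated replicates 1, 2 and 3 (adjusted p up to 0.16). The number of cholesterol genes called was 12 without PMSG replicate 1, 6 without PMSG replicate 2 or 3, and 5 without untreated replicate 1 or 2. Lss (0.46), Mvd (0.46), Sqle (0.41), Mvk (0.34), Ebp (0.23), Pmvk (0.22) and Fdft1 (0.12) did not pass, nor did Hsd17b7.

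**Figure D1:**
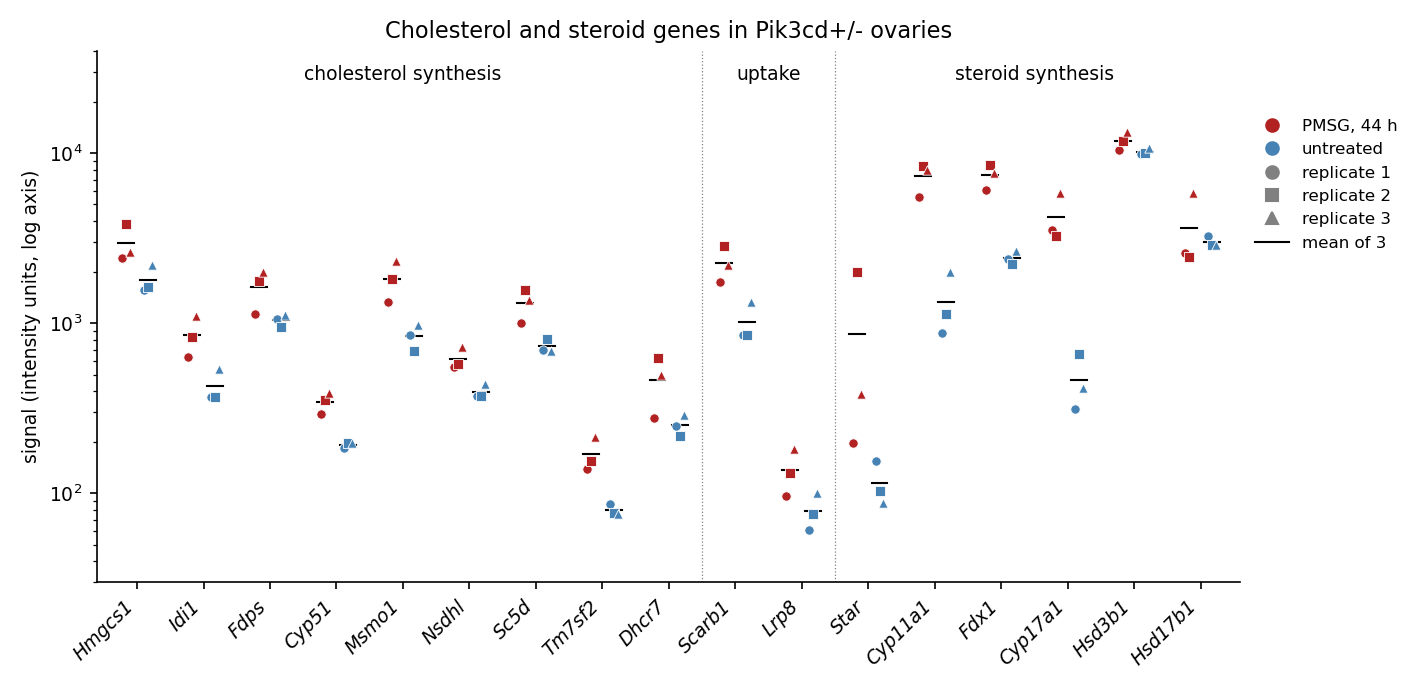
Signal of 17 genes of cholesterol synthesis, cholesterol uptake and steroid synthesis in each array (vertical axis, intensity units on a log scale), with PMSG in red to the left of untreated in blue for every gene, marker shape for the replicate and a black line for the mean of 3 arrays. Cyp11a1, Fdx1 and Cyp17a1 do not overlap between the groups, Star is high in PMSG replicate 2, and Hsd17b1 is high in PMSG replicate 3.

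Of 6 short motifs searched in promoters, CCAAT and the E-box (CANNTG) were found in most promoters of this pathway. The 250 bases before the transcription start were read from RefSeq (GRCm38.p6) for 8 of the 9 called cholesterol genes, which have 10 starts in the table, and CCAAT, on either strand, was found in 8 of the 10. It was also found in 6 of 7 promoters of the genes of this list that were not called, and in 33.8% of all 32851 promoters, so its share was no higher among the called members of the list than among the others. The E-box was found in 7 of the 10, in 5 of the 7 of genes not called, and in 66.2% of all promoters. The promoters of 3 called genes, from Hmgcs1 at the head of the pathway to Msmo1 near its end, are shown with CCAAT (or ATTGG, its reverse complement) in capitals.
Hmgcs1 (chr13:119690101-119690350, plus strand): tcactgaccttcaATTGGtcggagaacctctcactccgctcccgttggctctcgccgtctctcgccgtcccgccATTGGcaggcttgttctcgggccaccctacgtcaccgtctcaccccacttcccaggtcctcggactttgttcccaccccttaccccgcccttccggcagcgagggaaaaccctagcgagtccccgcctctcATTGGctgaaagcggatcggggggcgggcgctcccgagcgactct
Idi1 (chr13:8885356-8885605, plus strand): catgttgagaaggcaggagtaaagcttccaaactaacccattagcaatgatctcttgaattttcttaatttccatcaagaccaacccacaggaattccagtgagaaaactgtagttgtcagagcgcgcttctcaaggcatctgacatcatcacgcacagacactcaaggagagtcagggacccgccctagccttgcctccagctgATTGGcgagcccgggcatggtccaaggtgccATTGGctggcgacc
Msmo1 (chr8:64733579-64733828, minus strand): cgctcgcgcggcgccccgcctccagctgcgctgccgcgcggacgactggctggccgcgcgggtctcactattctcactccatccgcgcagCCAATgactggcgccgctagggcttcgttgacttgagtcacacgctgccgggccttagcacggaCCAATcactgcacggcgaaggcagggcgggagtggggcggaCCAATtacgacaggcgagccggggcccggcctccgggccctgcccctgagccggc
The motif lies 237, 176 and 45 bases before the start in Hmgcs1, 45 and 14 in Idi1, and 160, 96 and 55 in Msmo1, counted to its first printed base.

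Of 18 genes of cholesterol uptake, transport and storage, 2 rose (median 0.09), where 5.80% of all tested genes were called higher. Scarb1, the receptor that takes up cholesterol esters from high-density lipoprotein, had 1744, 2831 and 2189 in the PMSG arrays, against 854, 851 and 1333 in the untreated arrays (1.15 ± 0.20, adjusted p = 0.0022), with no overlap. Lrp8, an apolipoprotein E receptor, rose by 0.71 (adjusted p = 0.0325), a call that ended without PMSG replicate 2 or 3 or untreated replicate 1 or 2 (adjusted p up to 0.154). The sterol sensors and regulators Srebf2 (0.18), Srebf1 (0.09), Scap (-0.01), Insig1 (-0.10) and Insig2 (0.19) did not pass, and nor did the exporters Abca1 (0.10) and Abcg1 (-0.27). Among the largest rises over all genes were 3 others of lipid and hormone handling. Lipg, endothelial lipase, had 199.6, 397 and 170.2 in the PMSG arrays, against 59.2, 36.3 and 52.6 in the untreated arrays (2.11 ± 0.26, adjusted p = 0.000295). Mrap, the accessory protein that brings the ACTH receptor to the cell surface, had 459, 755 and 802 in the PMSG arrays, against 150.1, 159 and 186 in the untreated arrays (1.93 ± 0.23, adjusted p = 0.000234). Fads2, a fatty acid desaturase, had 579.6, 557 and 845 in the PMSG arrays, against 173, 165 and 181 in the untreated arrays (1.86 ± 0.21, adjusted p = 0.000211). All 3 were called in every fit without 1 array.

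Of 10 tested receptors for gonadotropins and peptide hormones, 3 rose and 1 fell. Fshr, the FSH receptor of granulosa cells, had 343, 333 and 859.8 in the PMSG arrays, against 194, 183 and 234 in the untreated arrays (1.16 ± 0.30, adjusted p = 0.018). The groups did not overlap, but PMSG replicate 3 was far brighter than the other two PMSG arrays. Without it the change was 0.71, and the call ended without untreated replicate 1 or 2 (adjusted p up to 0.068). The oxytocin receptor gene Oxtr had 263, 589 and 291 in the PMSG arrays, against 90.2, 123 and 114 in the untreated arrays (1.64 ± 0.43, adjusted p = 0.0173), a call that ended without PMSG replicate 2 or untreated replicate 1 (adjusted p up to 0.086). The growth hormone receptor gene Ghr had 1873, 1619 and 1152 in the PMSG arrays, against 885, 817 and 773 in the untreated arrays (0.87 ± 0.28, adjusted p = 0.0403), and that call ended without PMSG replicate 1 or 2 or untreated replicate 1, 2 or 3 (adjusted p up to 0.144). Gfra2, a co-receptor for neurturin, fell, with 78.6, 30.3 and 79.2 in the PMSG arrays, against 243, 247 and 174 in the untreated arrays (-1.77 ± 0.48, adjusted p = 0.0203). A dimmer probe set for Gfra2 showed a change of 0.00038, and the call of the brightest ended without PMSG replicate 2 or untreated replicate 1 or 2 (adjusted p up to 0.0981). The prostaglandin receptors Ptger2 (-0.02) and Ptger4 (-0.34) did not pass.

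Of 26 genes of cyclic AMP signalling 2 rose and 1 fell (median 0.07), where 5.80% of all tested genes were called higher and 11.9% lower. Pde4b, a phosphodiesterase that breaks cyclic AMP down, had 95.3, 85.2 and 108 in the PMSG arrays, against 43.9, 48.7 and 52.0 in the untreated arrays (0.88 ± 0.18, adjusted p = 0.00606). Prkar2b, the regulatory subunit of protein kinase A that granulosa cells make under FSH, had 5765, 5855 and 7479 in the PMSG arrays, against 2749.8, 3003 and 4316 in the untreated arrays (0.94 ± 0.25, adjusted p = 0.0181), and its call ended without PMSG replicate 3 or untreated replicate 1 or 2 (adjusted p up to 0.0891). The anchoring protein gene Akap12 fell by 0.44 ± 0.13, adjusted p = 0.0287, a call lost without PMSG replicate 2 or 3 or untreated replicate 1 or 2 (adjusted p up to 0.124). The subunits Prkaca (0.25), Prkar1a (0.12) and Prkar2a (0.01) and the cyclase Adcy9 (0.34) did not pass. RGS proteins switch off G protein signals, and of 12 tested, 1 rose and 3 fell. Rgs13 had 1547, 1731 and 1427 in the PMSG arrays, against 215, 312 and 344 in the untreated arrays (2.42 ± 0.51, adjusted p = 0.00602). Rgs3 fell, with 357, 329 and 313 in the PMSG arrays, against 419.7, 456 and 439 in the untreated arrays (-0.39 ± 0.07, adjusted p = 0.00241). The groups overlapped in neither gene. Rgs17 and Rgs12 fell by 0.77 and 0.36 (adjusted p = 0.0186 and 0.0167), calls that ended without 1 or more of PMSG replicate 1 and untreated replicates 1 and 2 (adjusted p up to 0.0937).

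Inhibin and activin are dimers of an alpha subunit (Inha) and beta subunits (Inhba, Inhbb). Of the 16 genes of this system and of anti-Müllerian hormone 1 rose and 1 fell, beside 5.80% and 11.9% of all tested genes. Acvr1, a type I receptor, had 608, 589 and 585 in the PMSG arrays, against 328, 354 and 402 in the untreated arrays (0.71 ± 0.15, adjusted p = 0.00684). Amh, the hormone of small growing follicles, had 353, 384 and 381 in the PMSG arrays, against 659, 451 and 507 in the untreated arrays (-0.50 ± 0.13, adjusted p = 0.0177), a call lost without PMSG replicate 1 or untreated replicate 1 (adjusted p up to 0.099). Inhba did not pass, although its groups did not overlap, with 4369.8, 4282 and 11149 in the PMSG arrays, against 1236, 2189 and 2520.4 in the untreated arrays (1.64 ± 0.66, adjusted p = 0.0961). Inhbb gave 4174, 4098 and 8788 in the PMSG arrays, against 4766, 4383 and 5239.7 in the untreated arrays (0.15 ± 0.46, adjusted p = 0.848) and the activin-binding protein Fst 3495, 3603 and 5422 in the PMSG arrays, against 3657, 3602 and 3899 in the untreated arrays (0.14 ± 0.33, adjusted p = 0.807). In these 3 genes PMSG replicate 3 was the highest array, and without it Inhbb differed by -0.21 and Fst by -0.07.

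Of 21 nuclear factors of granulosa and theca cells, 4 rose and 2 fell. Cebpb, a leucine-zipper factor of differentiating granulosa cells, had 1979, 2275 and 2301 in the PMSG arrays, against 1009.8, 1168 and 1103 in the untreated arrays (0.99 ± 0.12, adjusted p = 0.000295). The co-activators Cited1 and Cited2 also rose: Cited1 had 184, 219 and 163 in the PMSG arrays, against 85.8, 68.7 and 77.1 in the untreated arrays (1.20 ± 0.18, adjusted p = 0.000877) and Cited2 2842, 3141 and 3719 in the PMSG arrays, against 1852, 1752 and 1907 in the untreated arrays (0.81 ± 0.12, adjusted p = 0.000839). In these 3 genes the PMSG arrays were close together and all above the untreated ones. Cebpa rose by 0.91 (adjusted p = 0.0241), a call lost without PMSG replicate 3 or untreated replicate 1 or 2 (adjusted p up to 0.0885). Nr2f2 (COUP-TFII), an orphan receptor of stroma and theca, had 1054, 941 and 982 in the PMSG arrays, against 1428, 1356 and 1361 in the untreated arrays (-0.48 ± 0.09, adjusted p = 0.00369), and Emx2 fell by 0.59 ± 0.19, adjusted p = 0.0447, a call lost without PMSG replicate 2 or 3 or untreated replicate 1, 2 or 3 (adjusted p up to 0.136). The factors that define granulosa identity did not pass, with Nr5a1 at 0.36, Nr5a2 at -0.14, Foxl2 at -0.23, Gata4 at 0.13, Gata6 at -0.0039, Esr2 at -0.46 and Wt1 at -0.39 (adjusted p from 0.0511 to 0.99). Pgr, the progesterone receptor induced by the ovulatory surge, was high in PMSG replicate 1 alone, at 447, 150.2 and 123 in the PMSG arrays, against 65.7, 122 and 148 in the untreated arrays (0.88 ± 0.59, adjusted p = 0.312).

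**Figure D2:**
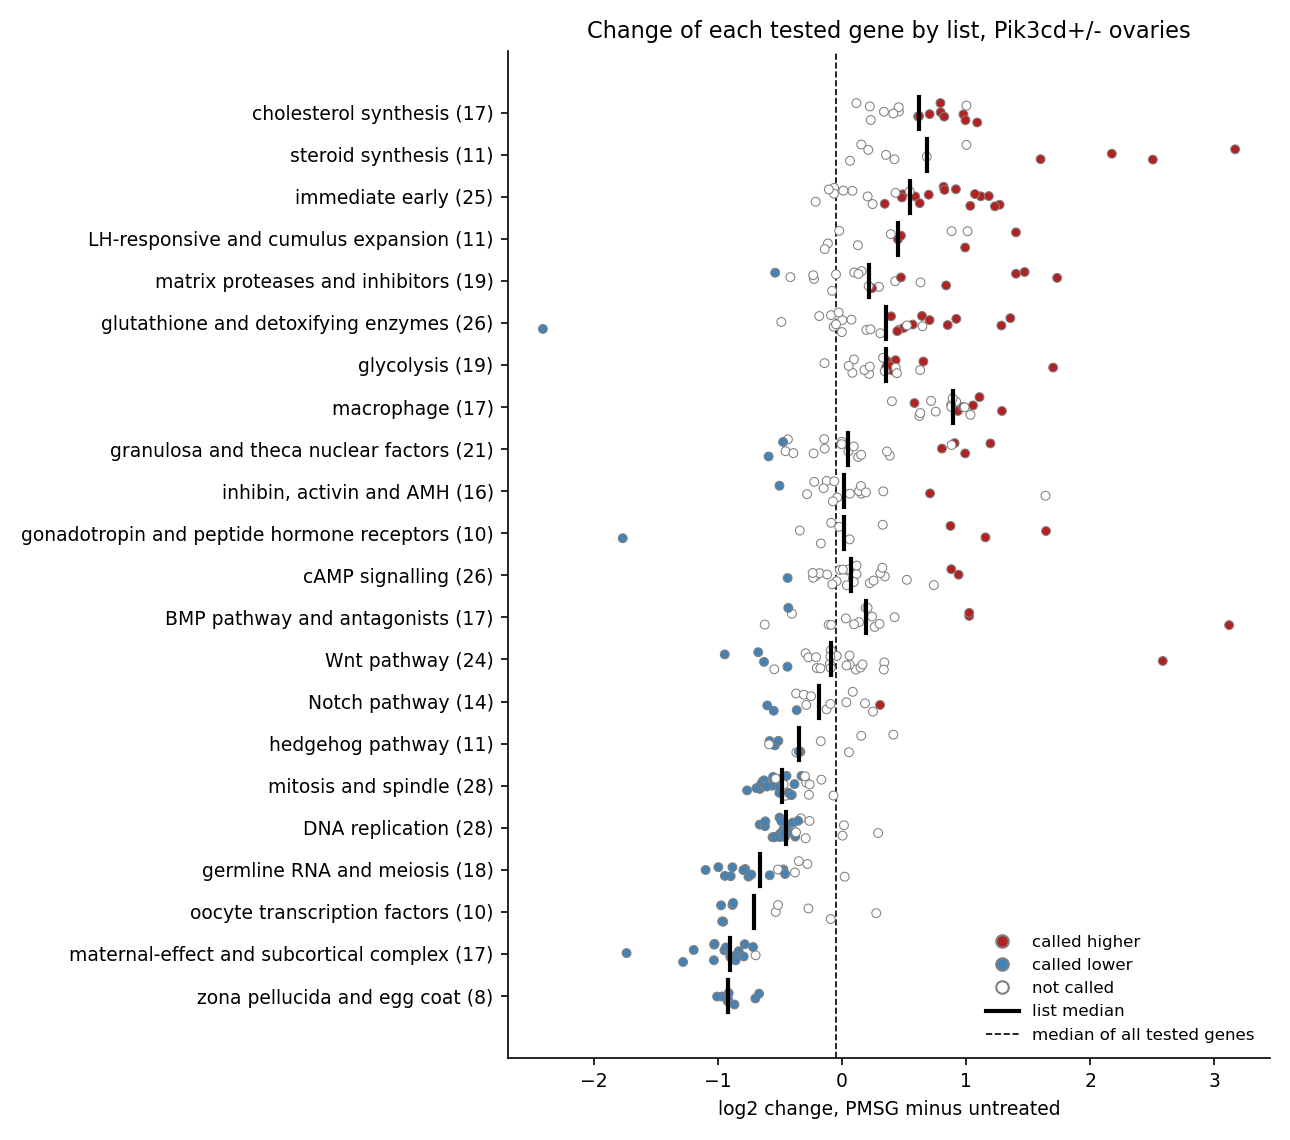
Log2 change of each tested gene, PMSG minus untreated in Pik3cd+/- ovaries (horizontal axis), for 22 gene lists with the number of tested members in brackets; red and blue points were called higher and lower, open points were not called, the short black lines are list medians and the dashed line is the median of all tested genes. All 8 zona pellucida and egg coat genes and 16 of 17 maternal-effect genes were called lower, and all 17 cholesterol synthesis genes lie right of 0.

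Immediate early genes, which cells induce within minutes of a signal, were higher at 44 hours: 15 of 25 rose and 0 fell, with a median of 0.54. Among the AP-1 genes, Fosl2 had 1566, 1669.8 and 2180.0 in the PMSG arrays, against 829, 730.1 and 789.9 in the untreated arrays (1.18 ± 0.14, adjusted p = 0.000234) and Fos 1737, 1318 and 957 in the PMSG arrays, against 611, 592 and 455 in the untreated arrays (1.23 ± 0.25, adjusted p = 0.00564). No PMSG array of either gene reached down to the untreated level. Jun and Junb rose by 0.92 and 0.70 (adjusted p = 0.0021 and 0.00225), whereas Jund differed by -0.21 (adjusted p = 0.0842). Ccn1 and Ccn2, secreted matrix proteins that respond to serum and stretch, rose by 1.12 and 1.27 (adjusted p = 0.0026 and 0.0022). Ccn2 was bright, at 5447, 5199.6 and 4242 in the PMSG arrays, against 2333, 2221 and 1639.5 in the untreated arrays. Nr4a1, an orphan nuclear receptor, had 325, 341 and 276 in the PMSG arrays, against 162, 181 and 176 in the untreated arrays (0.83 ± 0.16, adjusted p = 0.00455), while its relatives Nr4a2 (0.43) and Nr4a3 (0.01) did not pass. The phosphatase Dusp1 had 559.8, 998 and 524 in the PMSG arrays, against 324, 301 and 310.4 in the untreated arrays (1.07 ± 0.19, adjusted p = 0.00252). Of the EGR factors Egr2 rose by 0.49 (adjusted p = 0.0495), with PMSG replicate 3 at the untreated level (67.7, 61.3 and 35.5 in the PMSG arrays, against 35.7, 35.2 and 35.3 in the untreated arrays), and Egr1 (0.08) and Egr3 (-0.06) did not pass. The calls of Klf4, Atf3 and Egr2 ended without 1 or more of PMSG replicates 1 and 2 and untreated replicates 1, 2 and 3 (adjusted p up to 0.21), and those of the other 12 held without any 1 array. Summed over the 25 genes the signal was 24019, 22206 and 19414 in the PMSG arrays, against 15135, 14579.6 and 13489 in the untreated arrays, highest in PMSG replicate 1.

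The core letters of the cyclic AMP response element, TGACG on either strand, occur in the 250 bases before the start in 11 of 17 promoters of 13 called immediate early genes. They occur in 4 of 7 promoters of those that were not called and in 17.8% of all 32851 promoters. The promoters of 3 of the called genes and that of Cyp11a1 are printed below with TGACG (or CGTCA, its reverse complement) in capitals.
Fos (chr12:85473640-85473889, plus strand): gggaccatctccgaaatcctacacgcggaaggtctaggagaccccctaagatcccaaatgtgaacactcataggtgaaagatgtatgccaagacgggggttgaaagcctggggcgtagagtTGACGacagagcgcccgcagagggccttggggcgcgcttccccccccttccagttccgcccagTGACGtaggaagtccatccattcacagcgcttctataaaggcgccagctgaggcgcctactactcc
Nr4a1 (chr15:101266596-101266845, plus strand): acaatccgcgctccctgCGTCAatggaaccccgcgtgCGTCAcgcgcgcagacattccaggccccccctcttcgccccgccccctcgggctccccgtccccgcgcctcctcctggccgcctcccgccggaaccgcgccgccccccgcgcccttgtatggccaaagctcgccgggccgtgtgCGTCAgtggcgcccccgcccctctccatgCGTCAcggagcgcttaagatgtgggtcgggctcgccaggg
Dusp1 (chr17:26508473-26508722, minus strand): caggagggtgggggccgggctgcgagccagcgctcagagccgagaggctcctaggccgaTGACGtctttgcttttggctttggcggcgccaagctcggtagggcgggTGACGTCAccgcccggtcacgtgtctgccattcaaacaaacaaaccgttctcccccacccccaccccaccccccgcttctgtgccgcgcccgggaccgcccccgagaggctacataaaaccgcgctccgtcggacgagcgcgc
Cyp11a1, the first of 2 starts (chr9:57997774-57998023, plus strand): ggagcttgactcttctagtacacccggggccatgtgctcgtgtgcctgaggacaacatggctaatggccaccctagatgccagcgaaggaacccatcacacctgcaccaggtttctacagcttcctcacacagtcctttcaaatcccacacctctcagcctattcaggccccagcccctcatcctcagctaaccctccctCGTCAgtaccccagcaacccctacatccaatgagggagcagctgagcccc
The motif lies 129 and 66 bases before the start in Fos, 233, 213, 69 and 40 in Nr4a1, and 191, 143 and 140 in Dusp1. In Cyp11a1 it is found once, 50 bases before this start, and 0 times before the other start. Of the 4 called genes of steroid synthesis 2 had promoters in the reference, and 1 of their 3 promoters held the motif. A match of letters is no evidence of a bound factor.

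Of 11 tested genes that follow the ovulatory surge or form the cumulus matrix, 4 rose and 0 fell (median 0.45). These were Cebpb, the protease Adamts1, the cumulus matrix protein Ptx3 (0.45 ± 0.12, adjusted p = 0.0216) and the protease inhibitor Timp1 (0.47 ± 0.14, adjusted p = 0.0313). The calls of Ptx3 and Timp1 ended without 1 or more of the 6 arrays (adjusted p up to 0.135). Ereg, an EGF-like ligand, was brightest in PMSG replicate 3, at 45.5, 40.9 and 124 in the PMSG arrays, against 24.7, 25.8 and 29.4 in the untreated arrays (1.01 ± 0.36, adjusted p = 0.0629). Ptgs2, Has2 and Tnfaip6, which build the expanded cumulus, were below the filter on low signals in every group of the series, and Areg was not analysed here.

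Of 19 matrix proteases and their inhibitors, which remodel the follicle wall, 6 rose and 1 fell (median 0.21). Adamts5, an aggrecan-cleaving protease, had 1129, 1004 and 1058 in the PMSG arrays, against 333, 308 and 300.0 in the untreated arrays (1.73 ± 0.21, adjusted p = 0.000268). Adamts1, which cleaves versican, had 704, 561 and 730.4 in the PMSG arrays, against 248, 233 and 254 in the untreated arrays (1.40 ± 0.19, adjusted p = 0.000424). Plau, the urokinase plasminogen activator, had 373, 255 and 308 in the PMSG arrays, against 92.3, 108 and 118 in the untreated arrays (1.47 ± 0.19, adjusted p = 0.000424). In none of these 3 did the groups overlap. Adamts15 rose by 0.84 (adjusted p = 0.0112; lost without PMSG replicate 1, at adjusted p = 0.053). Cathepsin L (Ctsl) rose by 0.24 from a bright level (adjusted p = 0.0149; lost without PMSG replicate 1 or untreated replicate 1 or 2, at adjusted p up to 0.0549). Serpinf1, an anti-angiogenic serpin, fell by 0.54 ± 0.13, adjusted p = 0.0133, a call lost without untreated replicate 1 (adjusted p = 0.0508). Of 26 matrix glycoproteins 3 rose and 1 fell. Comp, cartilage oligomeric matrix protein, had 233, 205 and 708 in the PMSG arrays, against 46.8, 40.9 and 38.7 in the untreated arrays (2.72 ± 0.32, adjusted p = 0.000234). Spon1, an adhesion protein, had 2336, 1834 and 1816 in the PMSG arrays, against 269, 337 and 406 in the untreated arrays (2.54 ± 0.42, adjusted p = 0.00172). Comp was brightest in PMSG replicate 3, and Spon1 in PMSG replicate 1. Ecm1 rose by 0.94 (adjusted p = 0.0167; lost without PMSG replicate 2 or untreated replicate 2, at adjusted p up to 0.0745), and Thbs2, a thrombospondin, fell by 0.54 ± 0.17, adjusted p = 0.0413 on its brightest probe set, a call lost without PMSG replicate 1 or 2 or untreated replicate 1 or 2 (adjusted p up to 0.17), while another probe set gave 0.08. Of 14 collagens only Col8a1 was called (-0.48, lower; lost without PMSG replicate 2 or untreated replicate 1 or 2, at adjusted p up to 0.0983), and of 13 basal lamina genes only the laminin chain Lama2, with 842, 704 and 667 in the PMSG arrays, against 1224, 1073 and 1043 in the untreated arrays (-0.59 ± 0.13, adjusted p = 0.00842).

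In the BMP list more genes were called higher than lower, and in the Wnt, Notch and hedgehog lists more were called lower, as over all genes tested. Of 17 BMP genes 3 rose and 1 fell. The BMP antagonist Grem1 had 803, 792 and 2478 in the PMSG arrays, against 90.2, 119 and 187 in the untreated arrays (3.12 ± 0.65, adjusted p = 0.00596), brightest in PMSG replicate 3. The ligand gene Bmp2 had 998, 1099.8 and 622 in the PMSG arrays, against 398, 455 and 434 in the untreated arrays (1.02 ± 0.23, adjusted p = 0.00844), lowest in PMSG replicate 3. The antagonist Chrdl1 rose by 1.03 (adjusted p = 0.0276), and the oocyte ligand Bmp6 fell by 0.43 ± 0.13, adjusted p = 0.0364. The calls of Chrdl1 and Bmp6 ended without 1 or more of the 6 arrays (adjusted p up to 0.15). Of 24 Wnt genes 1 rose and 4 fell. Nkd1, an inhibitor of Wnt signalling that Wnt itself induces, had 208, 192 and 193 in the PMSG arrays, against 406, 386 and 372 in the untreated arrays (-0.95 ± 0.15, adjusted p = 0.00141). Dimmer probe sets for Nkd1 gave -0.44, which was called, and -0.33 and -0.06, which were not. Dkk3 fell by 0.68 ± 0.15, adjusted p = 0.00946. Wnt4, which ovarian development requires, had 398, 495 and 359 in the PMSG arrays, against 672, 706 and 563 in the untreated arrays (-0.63 ± 0.20, adjusted p = 0.0392), and Wnt11 fell by 0.44 ± 0.11, adjusted p = 0.0171. The calls of Wnt4 and Wnt11 ended without 1 or more of PMSG replicates 1 and 3 and untreated replicates 1 and 2 (adjusted p up to 0.127). Sfrp4, a secreted Wnt antagonist, was high in PMSG replicate 2, at 179, 2439.8 and 480.1 in the PMSG arrays, against 75.6, 96.4 and 109 in the untreated arrays (2.59 ± 0.68, adjusted p = 0.0176), a call lost without PMSG replicate 2 or untreated replicate 1 (adjusted p up to 0.072). Without PMSG replicate 2 its change was 1.58.

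Hedgehog signals come from granulosa cells and are received by theca precursors. Of 11 genes of the pathway 5 fell and 0 rose, with a median of -0.35. Gli1, a transcription factor and target of the pathway, had 87.3, 77.0 and 89.0 in the PMSG arrays, against 132, 123 and 138 in the untreated arrays (-0.58 ± 0.09, adjusted p = 0.00083). Ptch1, the receptor and also a target, had 2239, 2033 and 1939 in the PMSG arrays, against 2806, 2829 and 3245 in the untreated arrays (-0.51 ± 0.10, adjusted p = 0.00543). Both were lower in every PMSG array. Gli2 (-0.34), Gli3 (-0.35) and the co-receptor Cdon (-0.54) fell as well (adjusted p = 0.0143, 0.0196 and 0.0165), and lost their calls without 1 or more of PMSG replicate 2 and untreated replicates 1 and 2 (adjusted p up to 0.0703). Of 14 Notch genes 3 fell and 1 rose. The ligand gene Jag1 had 888, 887 and 696 in the PMSG arrays, against 1202, 1209 and 1197 in the untreated arrays (-0.55 ± 0.13, adjusted p = 0.00929) and the target gene Hey1 126, 110.0 and 118 in the PMSG arrays, against 195, 186 and 171 in the untreated arrays (-0.60 ± 0.12, adjusted p = 0.00483). Jag2 fell by 0.37 ± 0.09, adjusted p = 0.0106 (lost without untreated replicate 1, at adjusted p = 0.0526), and the feedback inhibitor Nrarp rose by 0.31 ± 0.10, adjusted p = 0.0382 (lost without PMSG replicate 1, 2 or 3 or untreated replicate 1 or 2, at adjusted p up to 0.171).

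Genes of the oocyte were lower after PMSG. All 8 zona pellucida and egg coat genes fell (median -0.92), as did 16 of 17 maternal-effect genes (median -0.90), 12 of 18 genes of germline RNA and meiosis (median -0.66) and 5 of 10 oocyte transcription factors (median -0.71). No member of the 4 lists rose. Zp1, a zona protein, had 505, 625 and 665 in the PMSG arrays, against 1183, 1283 and 1148 in the untreated arrays (-1.01 ± 0.22, adjusted p = 0.00821). Astl, the egg protease that cleaves the zona after fertilization, had 302, 362 and 352 in the PMSG arrays, against 704, 673 and 631 in the untreated arrays (-0.97 ± 0.23, adjusted p = 0.0115). Izumo1r (Juno), the receptor for sperm on the egg, had 121, 111 and 137 in the PMSG arrays, against 204, 206 and 203 in the untreated arrays (-0.70 ± 0.15, adjusted p = 0.00612). In each gene all PMSG arrays lay below all untreated ones.

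Members of the subcortical maternal complex of the egg fell as well. Ooep had 2113, 2384 and 2640.3 in the PMSG arrays, against 5039, 5069 and 4464 in the untreated arrays (-1.03 ± 0.19, adjusted p = 0.00292), and Padi6, Tle6 and Khdc3 fell by 0.94, 1.03 and 0.79 (adjusted p = 0.00314, 0.00483 and 0.0078). Nlrp5, its core member, had 688, 759.6 and 947 in the PMSG arrays, against 2049, 2002 and 1765 in the untreated arrays (-1.28 ± 0.22, adjusted p = 0.00212). Dppa3 and Zar1, which the early embryo needs, fell by 0.83 and 0.86 (adjusted p = 0.0073 and 0.00952). Among transcription factors, Nobox had 287, 327 and 334 in the PMSG arrays, against 712, 622 and 549 in the untreated arrays (-0.97 ± 0.17, adjusted p = 0.00257), Lhx8 fell by 0.88 ± 0.19, adjusted p = 0.00706 and the oocyte linker histone H1f8 by 0.96 ± 0.22, adjusted p = 0.00911. Of the RNA-binding genes, Dppa5a had 564, 649 and 618 in the PMSG arrays, against 1362, 1436 and 1166 in the untreated arrays (-1.10 ± 0.18, adjusted p = 0.00141), and Cpeb1 and Ybx2 fell by 1.00 and 0.88 (adjusted p = 0.00597 and 0.00423). Mos, the kinase that holds the egg in metaphase, fell by 0.94 ± 0.22, adjusted p = 0.0103, and Gpr3, the receptor that holds it in prophase, had 37.9, 42.1 and 35.4 in the PMSG arrays, against 53.5, 57.3 and 59.4 in the untreated arrays (-0.48 ± 0.10, adjusted p = 0.00721). Gdf9, a growth factor that the oocyte sends to granulosa cells, had 2525, 3053 and 2871 in the PMSG arrays, against 5349, 5414 and 5176 in the untreated arrays (-0.92 ± 0.17, adjusted p = 0.00303). Bmp15, of the same list of paracrine signals, was not called on its brightest probe set (-0.54; limma over all probe sets, adjusted p = 0.166). Its dimmer probe sets were called lower (-0.57 and -0.93, adjusted p = 0.0319 and 0.0165). Without 1 array 7 or 8 zona genes and 12 to 15 maternal-effect genes were called lower. The 12 calls among genes of germline RNA and meiosis became 6 without PMSG replicate 1, 7 without untreated replicate 1 and 8 to 13 without another array. The 5 among oocyte transcription factors became 3 without untreated replicate 1 and stayed at 5 without any other array. In RNA of whole ovaries fewer oocytes relative to other cells and less RNA per oocyte cannot be told apart.

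**Figure D3:**
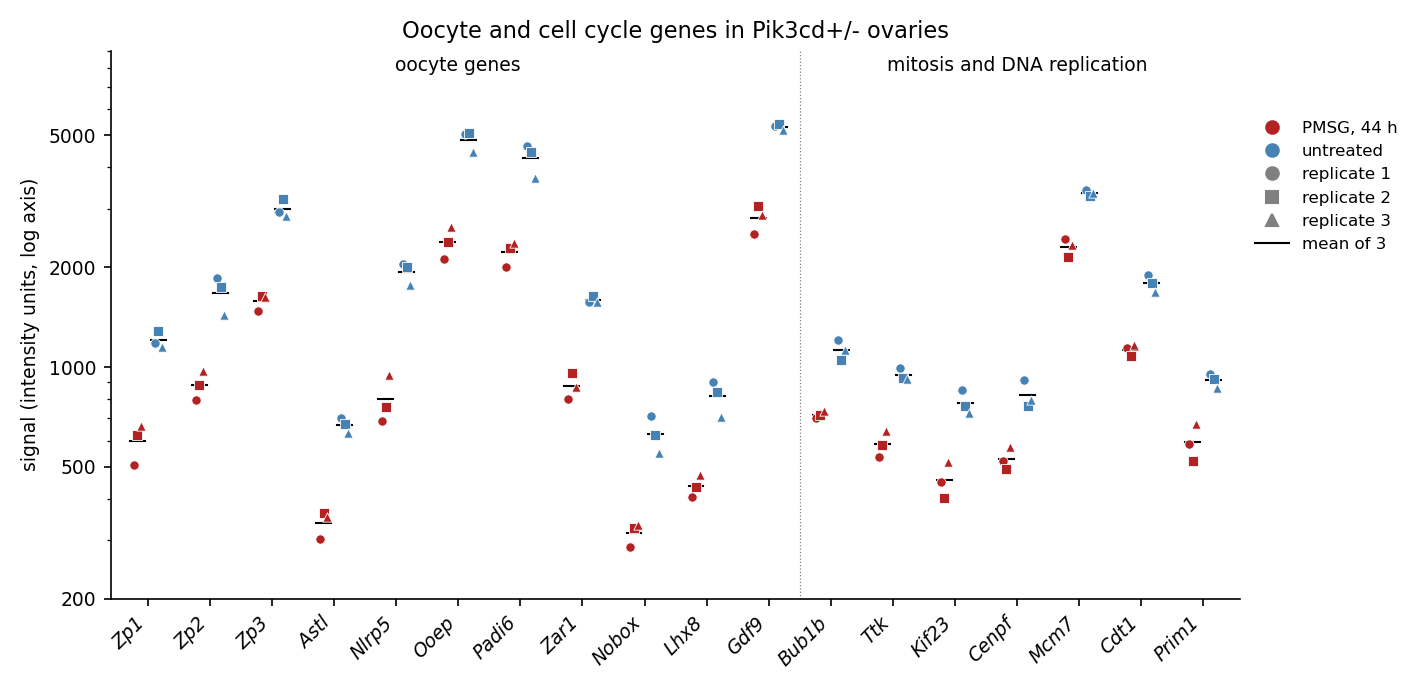
Signal of 11 oocyte genes and 7 genes of mitosis and DNA replication in each array (vertical axis, intensity units on a log scale), PMSG in red to the left of untreated in blue, marker shape for the replicate and a black line for the mean of 3 arrays. In all 18 genes the 3 PMSG arrays lie below the 3 untreated arrays.

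Genes of the cell cycle were also lower after PMSG. Of 28 genes of DNA replication 20 fell and 0 rose (median -0.45), and of 28 genes of mitosis and the spindle 18 fell and 0 rose (median -0.49). Mcm7, a subunit of the replicative helicase, had 2442, 2144 and 2334 in the PMSG arrays, against 3431, 3272 and 3359.6 in the untreated arrays (-0.54 ± 0.08, adjusted p = 0.000623). Cdt1, which loads that helicase, had 1138, 1081 and 1168 in the PMSG arrays, against 1899, 1796 and 1689 in the untreated arrays (-0.66 ± 0.11, adjusted p = 0.00141), and the primase Prim1 fell by 0.62 ± 0.12, adjusted p = 0.00394. For the helicase subunit gene Mcm6 the brightest probe set gave -0.55 and a second gave 0.0081, and for Mcm4 these values were -0.50 and -0.02. Among mitotic genes, the centromere kinesin Cenpe had 239, 240.0 and 299 in the PMSG arrays, against 473, 372 and 399.9 in the untreated arrays (-0.66 ± 0.10, adjusted p = 0.00107), the kinesin Kif23 448, 403 and 517 in the PMSG arrays, against 853, 761 and 724 in the untreated arrays (-0.77 ± 0.13, adjusted p = 0.00225), and Birc5 (survivin) 889, 829 and 1021 in the PMSG arrays, against 1423, 1337 and 1269 in the untreated arrays (-0.56 ± 0.11, adjusted p = 0.00373). PMSG replicate 3 was the highest of the PMSG arrays in each of these 3. Summed over the 28 mitotic genes the signal was 21119, 19848 and 24842 in the PMSG arrays, against 32541, 29075 and 28444 in the untreated arrays. The counts changed in fits without 1 array, which also have fewer arrays. There 8 mitotic genes were called without PMSG replicate 1 or 2 or untreated replicate 1 or 2, and 21 without PMSG replicate 3. For DNA replication 8 were called without untreated replicate 1, 9 without PMSG replicate 2 and 12 without PMSG replicate 1 or untreated replicate 2.

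Among 15 D cyclins and CDK inhibitors 2 rose and 2 fell. Cdkn1a, the inhibitor p21, had 231, 207 and 209 in the PMSG arrays, against 125, 138 and 145 in the untreated arrays (0.63 ± 0.11, adjusted p = 0.00269), and all PMSG arrays were above the untreated ones. Gadd45b, a stress-induced growth arrest gene, had 517, 525 and 369 in the PMSG arrays, against 243, 282 and 188 in the untreated arrays (0.96 ± 0.23, adjusted p = 0.0131), a call lost without PMSG replicate 1 or 2 (adjusted p up to 0.0539). Ccnd2, the cyclin of granulosa proliferation, had 2436, 2176 and 3011 in the PMSG arrays, against 3581, 3242 and 3383 in the untreated arrays (-0.43 ± 0.12, adjusted p = 0.0275). Its other 6 probe sets also had changes below 0, and 2 of them were called. Rbl1, a pocket protein of the retinoblastoma family, fell by 0.45 ± 0.14, adjusted p = 0.0369. The calls of Ccnd2 and Rbl1 ended without 1 or more of PMSG replicates 1 and 2 and untreated replicates 1, 2 and 3 (adjusted p up to 0.152).

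Of 26 genes of glutathione metabolism and detoxification, 10 rose and 1 fell (median 0.35). Gstm7, a glutathione transferase, had 345, 315 and 575 in the PMSG arrays, against 152, 161 and 138 in the untreated arrays (1.36 ± 0.19, adjusted p = 0.000506), and a dimmer probe set gave 0.18 (adjusted p = 0.322). Gpx3, the secreted glutathione peroxidase, had 2897, 2539 and 1876 in the PMSG arrays, against 878, 1074 and 998 in the untreated arrays (1.28 ± 0.26, adjusted p = 0.00489). Ephx1, an epoxide hydrolase, rose by 0.64 ± 0.15, adjusted p = 0.00892, and Mgst1, a membrane-bound transferase, by 0.40 ± 0.07, adjusted p = 0.00314. Gstm1, Gstm2 and Gstm3 rose by 0.50, 0.57 and 0.44 and Hmox1, haem oxygenase, by 0.71 (adjusted p from 0.0111 to 0.0263), calls that ended without 1 or more of the 6 arrays (adjusted p up to 0.103). The transferases of the Gstm family are close in sequence, and how far their probe sets share signal was not tested. Without untreated replicate 1 only 4 genes of the list were called higher. Akr1c13, an aldo-keto reductase, fell, with 84.0, 47.0 and 69.5 in the PMSG arrays, against 244, 440.2 and 525 in the untreated arrays (-2.41 ± 0.62, adjusted p = 0.017), a call lost without PMSG replicate 2 or untreated replicate 2 or 3 (adjusted p up to 0.0653). Outside the list Dpep1, a dipeptidase that acts on products of glutathione, had 1207, 964 and 1318 in the PMSG arrays, against 229.7, 232 and 217 in the untreated arrays (2.31 ± 0.25, adjusted p = 0.000169), with every PMSG array at least 4 times every untreated one.

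Genes of retinoid handling went both ways, with 4 of 14 higher and 2 lower. Aldh1a7, an aldehyde dehydrogenase, had 1096, 743 and 1389 in the PMSG arrays, against 255, 236 and 286 in the untreated arrays (1.98 ± 0.26, adjusted p = 0.000434). Stra6, the retinol transporter, fell, with 47.6, 53.5 and 58.6 in the PMSG arrays, against 114, 85.8 and 94.5 in the untreated arrays (-0.78 ± 0.14, adjusted p = 0.00314). The groups overlapped in neither gene. Aldh1a1, which makes retinoic acid, rose by 0.64, the reductase Dhrs3 by 0.43 and the receptor Rarg by 0.39, while Rdh11 fell by 0.51 (adjusted p from 0.0256 to 0.0363). These 4 calls ended without 1 or more of the 6 arrays (adjusted p up to 0.134), and a second probe set of Rdh11 gave 0.22. Of 14 junction genes 2 rose and 2 fell. The tight junction genes Cldn11 and Cldn1 moved in opposite directions: Cldn11 had 129.6, 166 and 147 in the PMSG arrays, against 46.7, 48.7 and 42.0 in the untreated arrays (1.52 ± 0.19, adjusted p = 0.000295), and Cldn1 120.5, 85.7 and 108 in the PMSG arrays, against 299.7, 250.0 and 328 in the untreated arrays (-1.41 ± 0.21, adjusted p = 0.001). Gja4, the connexin between oocyte and granulosa cells, fell by 0.79 ± 0.20, adjusted p = 0.0152 (lost without PMSG replicate 1 or untreated replicate 1, at adjusted p up to 0.0603), and F11r, a junctional adhesion molecule, rose by 0.61 ± 0.12, adjusted p = 0.00479, while its other tested probe set gave 0.0043 (adjusted p = 0.981).

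Over all genes, the smallest adjusted p-value of a rise was that of Slc25a33, a mitochondrial carrier of pyrimidine nucleotides, with 581, 489 and 631 in the PMSG arrays, against 187, 204 and 188 in the untreated arrays (1.51 ± 0.13, adjusted p = 2.27e-05). Next were Sez6l2 (1.52 ± 0.15, adjusted p = 9.33e-05), the nuclear factor gene Tox (1.31 ± 0.14, adjusted p = 0.000149), Dpep1, Fads2, Fdx1, Tcaf1 (0.86 ± 0.09, adjusted p = 0.000211) and Lrp11, of the LDL receptor-related family (1.71 ± 0.19, adjusted p = 0.000211). Mug1, a protease inhibitor of the macroglobulin family, was dim in the untreated ovaries, with 86.4, 111 and 97.5 in the PMSG arrays, against 15.6, 17.9 and 13.2 in the untreated arrays (2.14 ± 0.31, adjusted p = 0.00067). Bhmt, betaine-homocysteine methyltransferase, was high in PMSG replicate 2, with 115, 825 and 59.8 in the PMSG arrays, against 25.2, 27.6 and 34.7 in the untreated arrays (2.35 ± 0.68, adjusted p = 0.0276; lost without PMSG replicate 2 or untreated replicate 1 or 2, at adjusted p up to 0.107), and without that array its change was 1.29. The smallest adjusted p-value of a fall was that of Hs6st2, a sulfotransferase that modifies heparan sulfate, with 508, 485 and 596 in the PMSG arrays, against 1276, 1326 and 1138 in the untreated arrays (-1.22 ± 0.10, adjusted p = 1.63e-05). The imprinted gene Mest had 205, 238 and 236 in the PMSG arrays, against 510.2, 542 and 416 in the untreated arrays (-1.08 ± 0.11, adjusted p = 9.33e-05), and Ankrd50, Rassf5, Slc25a42, Krt79, Sorcs2 and Ddhd1 fell by 0.56, 0.62, 0.99, 1.01, 0.89 and 1.09 (adjusted p from 0.000234 to 0.000362). All these falls were called in every fit without 1 array.

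Among the largest falls were several genes of secreted and membrane proteins. Fndc5, the precursor of irisin, had 92.8, 74.2 and 167 in the PMSG arrays, against 428, 322 and 273 in the untreated arrays (-1.60 ± 0.22, adjusted p = 0.000506). Cntn4, a neural adhesion molecule, had 36.4, 43.1 and 40.3 in the PMSG arrays, against 121, 119 and 203 in the untreated arrays (-1.64 ± 0.28, adjusted p = 0.00235), and Kazald1, a secreted protein with a Kazal domain, 541, 519 and 618 in the PMSG arrays, against 2859, 1432 and 1229 in the untreated arrays (-1.60 ± 0.34, adjusted p = 0.00614). In all 3 the PMSG arrays lay below the untreated ones. B4galt6, a glycolipid galactosyltransferase, changed by -1.65 ± 0.45, adjusted p = 0.0218 (lost without PMSG replicate 2 or untreated replicate 1 or 2, at adjusted p up to 0.0895). Pramel27, of a family expressed in germ cells, had 31.3, 37.4 and 267 in the PMSG arrays, against 389, 426 and 424 in the untreated arrays (-2.40 ± 0.73, adjusted p = 0.0345; lost without PMSG replicate 1 or 2 or untreated replicate 1, 2 or 3, at adjusted p up to 0.137), and the oocyte gene Nlrp4e 27.1, 36.0 and 96.7 in the PMSG arrays, against 173, 174 and 178 in the untreated arrays (-1.74 ± 0.43, adjusted p = 0.0136; lost without PMSG replicate 1 or 2, at adjusted p up to 0.0638). In both, PMSG replicate 3 was far brighter than the other PMSG arrays. Stc1, the glycoprotein hormone stanniocalcin, had 118, 134 and 84.7 in the PMSG arrays, against 379.5, 210.3 and 502 in the untreated arrays (-1.56 ± 0.33, adjusted p = 0.00605). Nell1, a secreted protein with EGF-like repeats, had 20.3, 22.8 and 29.8 in the PMSG arrays, against 85.3, 76.9 and 103 in the untreated arrays (-1.56 ± 0.25, adjusted p = 0.00157). Dlk1, an imprinted membrane protein of the Notch ligand family, had 53.0, 36.6 and 26.9 in the PMSG arrays, against 127, 96.2 and 161 in the untreated arrays (-1.54 ± 0.38, adjusted p = 0.0143; lost without untreated replicate 1, at adjusted p = 0.0519). Igfbp3, which binds IGFs in tissue fluid, had 208, 184 and 101 in the PMSG arrays, against 428, 304 and 767 in the untreated arrays (-1.51 ± 0.44, adjusted p = 0.0287; lost without PMSG replicate 2 or 3 or untreated replicate 1 or 3, at adjusted p up to 0.106). The untreated arrays of Igfbp3 and Stc1 were themselves uneven, with replicate 3 the brightest in both. Ccnb1ip1, a gene of meiotic crossing over, fell by 1.49 ± 0.33, adjusted p = 0.00801 and Aunip, a partner of Aurora kinase, by 1.26 ± 0.25, adjusted p = 0.00493.

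The 3 PMSG arrays differed from one another more than the untreated ones did. The median SD of a gene's log2 values was 0.126 in the PMSG and 0.0935 in the untreated arrays. In a principal component analysis of the 6 arrays the first component, with 57.5% of the variance, separated the groups, and the second, with 19.4%, separated PMSG replicate 3 from the rest. PMSG replicate 3 was the brightest PMSG array for Fshr, Inhba, Inhbb, Hsd17b1, Grem1 and Comp, and the dimmest for Bmp2, Ntn4 and Saa3, the last with 653, 637 and 138 in the PMSG arrays, against 74.3, 55.5 and 57.8 in the untreated arrays (2.49 ± 0.49, adjusted p = 0.00466). The call of Ntn4 (0.97) ended without PMSG replicate 1 or 2 or untreated replicate 1 (adjusted p up to 0.0762). PMSG replicate 2 was the brightest for Star, Sfrp4, Bhmt and Hsd17b7. In the 124 genes that rose at least 2-fold, the brightest PMSG array was replicate 1 in 52, replicate 2 in 22 and replicate 3 in 50, and in 7 genes it was at least 3 times the next. In the 69 genes that fell at least 2-fold, replicate 3 was the brightest PMSG array in 46 and replicate 1 the dimmest in 44.

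**Figure D4:**
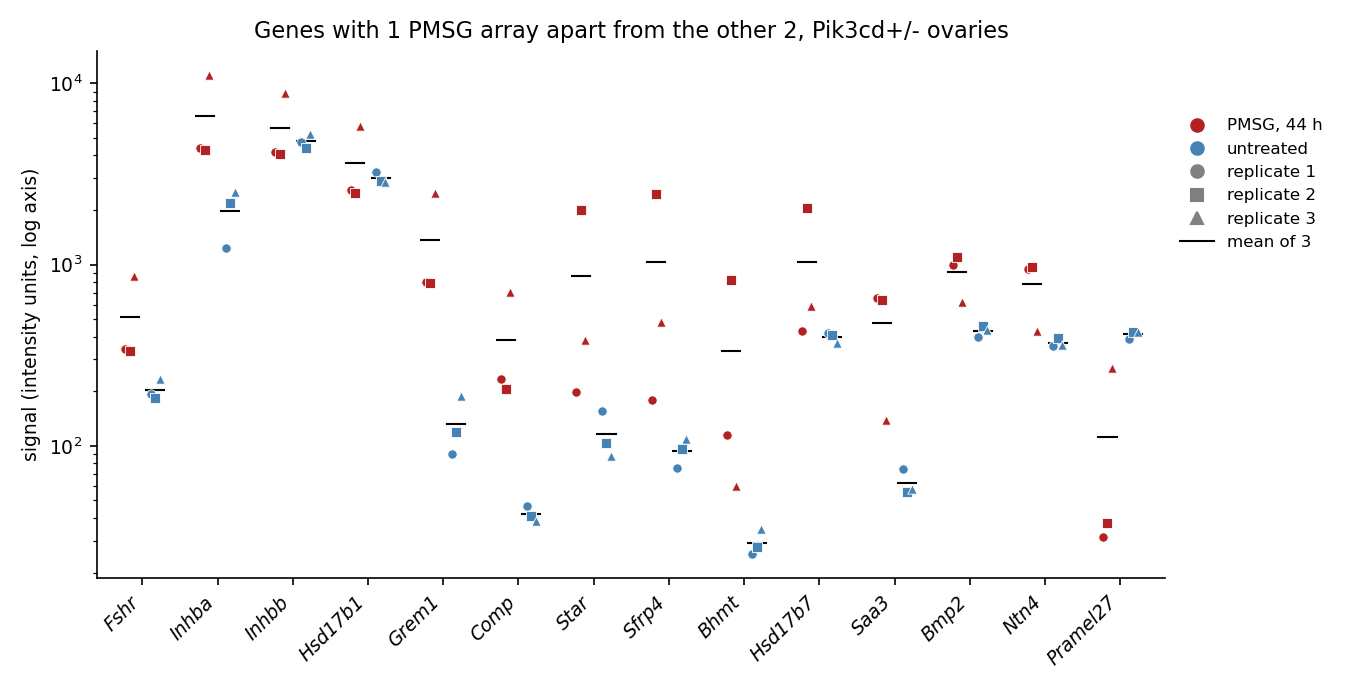
Signal of 14 genes in which 1 PMSG array stood apart (vertical axis, intensity units on a log scale), PMSG in red to the left of untreated in blue, marker shape for the replicate and a black line for the mean of 3 arrays. The first 6 genes are highest in PMSG replicate 3, the next 4 in PMSG replicate 2, and Saa3, Bmp2 and Ntn4 are lowest in PMSG replicate 3.

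Markers of other cell types varied between these arrays as well. Of 17 macrophage markers 6 were called higher and 0 lower (median 0.89), and their summed signal was 7895, 6309 and 3854 in the PMSG arrays, against 3130.4, 3348 and 2784 in the untreated arrays. The complement genes C1qa, C1qb and C1qc, the receptor subunit Fcer1g, Cx3cr1 and Aif1 were the 6, and 0 of the 17 were called without PMSG replicate 1 or 2 or without untreated replicate 1 or 3, against 10 without PMSG replicate 3. The 5 tested genes of MHC class II presentation had sums of 1866, 1073 and 827 in the PMSG arrays, against 673, 661 and 825 in the untreated arrays, with 0 called. The 6 oviduct markers tested gave 4739, 578 and 491 in the PMSG arrays, against 402, 2453 and 632 in the untreated arrays, and the secretory gene Ovgp1 alone 3987, 225 and 71.4 in the PMSG arrays, against 23.9, 1170.0 and 241 in the untreated arrays, so single arrays of both groups held far more than the rest. Of 11 oviduct markers 5 were below the filter, among them the defining factors Foxj1 and Pax8. The 6 adipocyte markers gave 13846, 8977 and 4689.8 in the PMSG arrays, against 7117, 6210.3 and 16072 in the untreated arrays, also with 0 called. Of the 12 smooth muscle markers Des (1.32) and Actg2 (1.11) were called higher (adjusted p = 0.0219 and 0.0438), with sums of 26474 to 33126 in the PMSG arrays, against 21372 to 26162 in the untreated arrays, and both calls ended without 1 or more of the 6 arrays (adjusted p up to 0.124). Sums of the 10 stromal markers were 14664 to 21465 in the PMSG arrays, against 15226 to 17230.3 in the untreated arrays, and of the 18 endothelial markers 5399 to 5759 in the PMSG arrays, against 5324 to 5702 in the untreated arrays, where Angpt1 was called higher (0.58; lost without PMSG replicate 1 or 3 or untreated replicate 1 or 3, at adjusted p up to 0.13). Of 11 surface epithelium markers 1, Bnc1, which oocytes also express, was called lower (-0.98), with sums of 2581 to 4241 in the PMSG arrays, against 3205 to 3618 in the untreated arrays. Of 13 lymphocyte markers 7 were below the filter and 3 tested, of which Ms4a1 was called lower (-0.74), with sums of 220.3 to 239 in the PMSG arrays, against 269 to 291 in the untreated arrays, and of 11 interferon response genes Irf9 and Oas1a were called higher, with sums of 3327 to 4919.6 in the PMSG arrays, against 2699 to 4032 in the untreated arrays. The call of Irf9 ended without PMSG replicate 1 or 3 or untreated replicate 2 or 3 (adjusted p up to 0.0961) and that of Oas1a without PMSG replicate 1 or 2 or untreated replicate 1 or 3 (adjusted p up to 0.108). No marker tested was listed at 0. The part of these cells in the changes above was not tested.

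Other named genes also had tested probe sets that differed from the brightest by more than 1.5 times. For Fosl2 a dimmer probe set gave 0.19, for Gadd45b 0.23, for Ghr 0.38, for Oxtr 0.36, for Ntn4 0.33, for Chrdl1 0.32 and 0.55, for Angpt1 0.24, for Rarg 0.18 and for Nrarp 0.03, none of which was called. On the lower side the uncalled values were -0.23 for Ddhd1, -0.25 for Jag1, -0.25 for Mcm7, -0.02 for Nr2f2, -0.13 for Rbl1, -0.12 for Rgs3, and -0.24, 0.06 and 0.32 for Septin11. Smaller changes that were still called came from probe sets of Spon1 (0.84 and 1.21), Plau (0.78), Sez6l2 (1.00), Tox (0.59), B4galt6 (-0.62), Cenpf (-0.37) and Gfra2 (-0.86). Larger changes, also called, came from those of Ctsl (2.78), C1qb (1.78), Idi1 (1.57) and Tcaf1 (1.42 and 1.39), although 1 further probe set of Tcaf1 gave 0.42 and was not called. Probe sets of 1 symbol can read different transcripts, and which of them do was not tested.

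The same dose of PMSG was given to Pik3cd-/- mice, whose arrays share none with the heterozygous ones. There limma called 301 genes (2.37%), 215 higher (1.69%) and 86 lower (0.677%). Of the 124 genes that rose at least 2-fold in Pik3cd+/- ovaries, 117 had a change above 0 in Pik3cd-/- ovaries, 50 were called there and 46 were at least 2-fold higher. Their median change was 1.26 in Pik3cd+/- and 0.79 in Pik3cd-/- ovaries. Of the 69 genes that fell at least 2-fold, 67 had a change below 0 in Pik3cd-/-, 7 were called there and 4 fell at least 2-fold, with medians of -1.08 in Pik3cd+/- and -0.51 in Pik3cd-/-. The genes were chosen by their changes in Pik3cd+/- ovaries, a choice that favours larger values there. The shares of all tested genes on each side of 0, or past 2-fold, in Pik3cd-/- ovaries are not given here. The counts by sign and by size therefore have no background beside them. The test of the difference between the genotypes called 0 genes, with 1195 (9.4%) at an unadjusted p under 0.05 and a smallest adjusted p of 0.0711. It called 4 genes without PMSG replicate 3 of Pik3cd+/-, and 1 without PMSG replicate 1 of Pik3cd-/-.

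Some rises had close values in both genotypes. Fads2 changed by 1.86 in Pik3cd+/- and 1.97 in Pik3cd-/- ovaries, Fdx1 by 1.60 and 1.59, Sez6l2 by 1.52 and 1.56, Tcaf1 by 0.86 and 0.91, Cldn11 by 1.52 and 1.46, and Adamts5 by 1.73 and 1.51, all called in both. The 10 genes with the smallest p-values for the difference between the genotypes, 5 in each direction, were called in Pik3cd+/- ovaries, and of them only Hs6st2 was also called in Pik3cd-/- ovaries (-0.51 ± 0.10, adjusted p = 0.0136). Asb4, a substrate adaptor of ubiquitin ligases, had 587, 414 and 348 in the PMSG arrays, against 125, 176 and 151 in the untreated arrays in Pik3cd+/- ovaries (1.50 ± 0.17, adjusted p = 0.000234), and changed by -0.05 ± 0.17, adjusted p = 0.898 in Pik3cd-/- ovaries. The difference between the genotypes was 1.56 ± 0.25, adjusted p = 0.0711. Ddhd1, a phospholipase, changed by -1.09 ± 0.14, adjusted p = 0.000362 in Pik3cd+/- and by 0.22 ± 0.14, adjusted p = 0.409 in Pik3cd-/- ovaries, a difference of -1.31 ± 0.20, adjusted p = 0.0711. Pawr, a pro-apoptotic partner of Wt1, differed by 0.65 ± 0.11, adjusted p = 0.112, Lrp11 by 1.52 ± 0.27, adjusted p = 0.121, the netrin Ntn4 by 1.81 ± 0.35, adjusted p = 0.152 and Impact, a regulator of translation, by 0.52 ± 0.10, adjusted p = 0.17. On the other side Slc25a42 differed by -0.92 ± 0.17, adjusted p = 0.152, Hs6st2 by -0.71 ± 0.14, adjusted p = 0.152, Ermap by -0.83 ± 0.16, adjusted p = 0.152 and Septin11 by -0.56 ± 0.11, adjusted p = 0.17. Each of these 10 differences misses the threshold.

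The lists had these counts in Pik3cd-/- ovaries. Of the 8 zona genes, 17 maternal-effect genes and 28 genes of DNA replication 0, 0 and 0 were called lower there, with median changes of -0.39, -0.37 and -0.14. Of the 28 mitotic genes 1, Ttk, was called lower. Steroid synthesis had 3 calls of 11 and cholesterol synthesis 3 of 17, with medians of 0.42 and 0.42. Immediate early genes had 4 calls of 25 and a median of 0.25. No gene of these lists passed the test of the difference between genotypes.

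**Figure D5:**
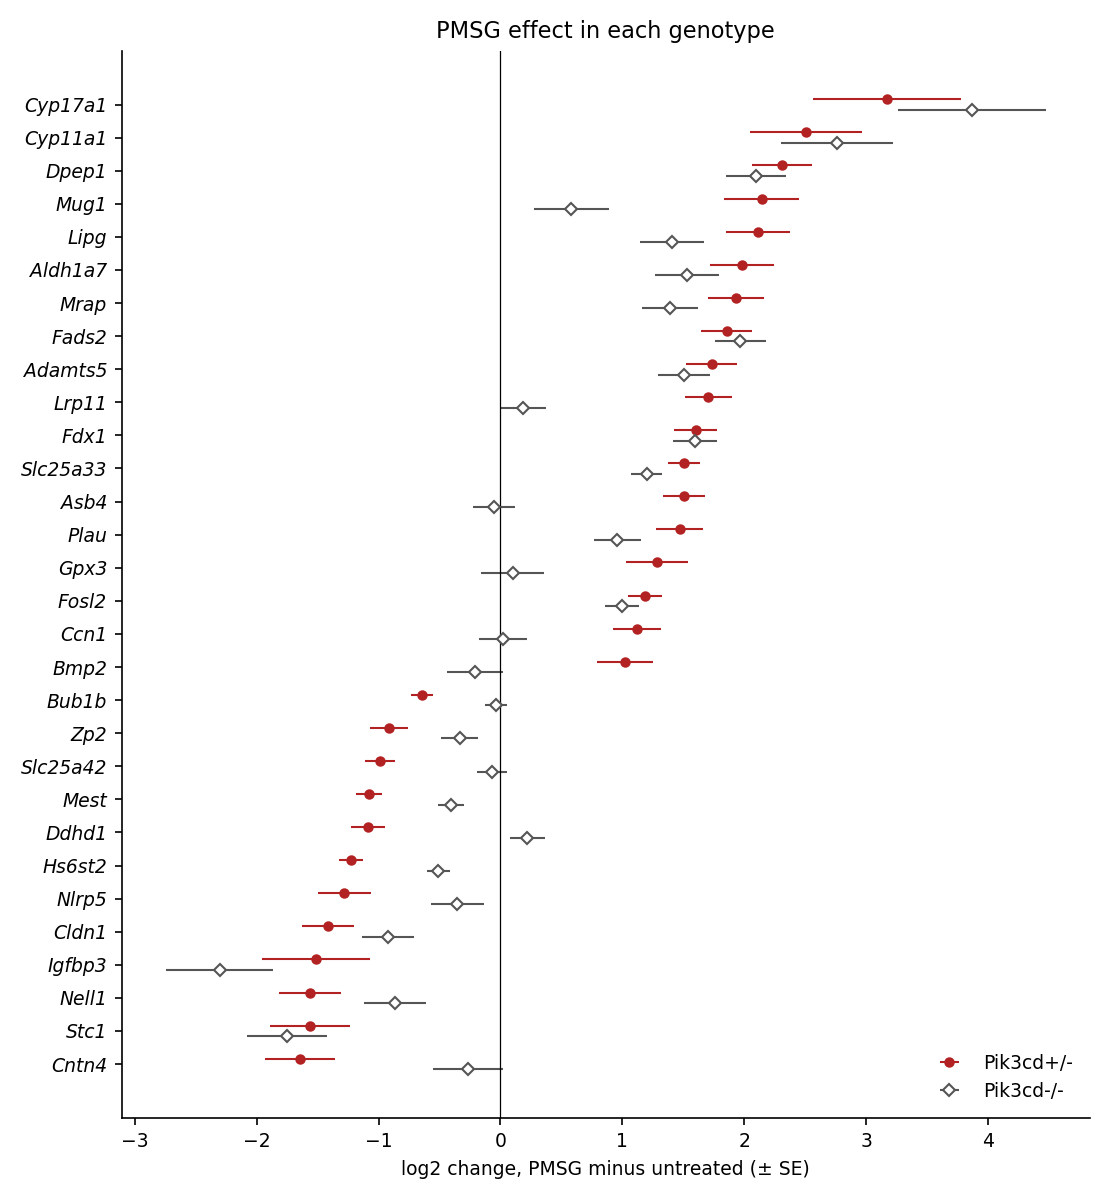
Log2 change, PMSG minus untreated, of 30 genes named in the text (horizontal axis), with filled red circles for Pik3cd+/- above open diamonds for Pik3cd-/- and bars of ± 1 SE of the limma fit (3 arrays per group). Fads2, Fdx1 and Adamts5 lie close together in both genotypes, whereas Asb4, Ddhd1 and Lrp11 lie apart, with differences that did not pass the threshold.

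PMSG was also set directly against E2 in Pik3cd+/- ovaries, at 44 and 72 hours, so that the times differ. Age at harvest and the number of injections (1 against 3) differ as well. In this contrast limma called 1421 genes (11.2%), 449 higher after PMSG (3.53%) and 972 lower (7.65%). The count was 790 without PMSG replicate 1, 662 without PMSG replicate 2, 825 without E2 replicate 1 and 609 without E2 replicate 2. Of the 124 genes that rose at least 2-fold over untreated ovaries, 82 were higher after PMSG than after E2 and 0 lower, and of the 69 that fell at least 2-fold 17 were lower and 0 higher, counts that share the PMSG arrays with the choice of the genes. Fads2, Cldn11, Sez6l2, Tcaf1 and Tox had the smallest p-values on the higher side, with differences of 2.36, 2.07, 1.64, 1.02 and 1.46 (adjusted p = 3.43e-05 for each). On the lower side these were the carboxypeptidase-like Cpxm1 (-1.13 ± 0.12, adjusted p = 0.000102), Serpinb9b (-1.48 ± 0.16, adjusted p = 0.000102), Pdzd2 (-0.83 ± 0.09, adjusted p = 0.000102), Coq8a (-0.80 ± 0.09, adjusted p = 0.00014) and Gulo, of vitamin C synthesis (-1.77 ± 0.21, adjusted p = 0.000163). Serpinb9b and Coq8a were not called after PMSG against untreated ovaries (-0.15 and -0.18; adjusted p = 0.568 and 0.197).

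By list, 11 of 17 cholesterol synthesis genes were higher after PMSG than after E2 (median difference 0.84) and 5 of 11 steroid synthesis genes, among them Hsd3b1 (1.00 ± 0.13, adjusted p = 0.00044). Against untreated ovaries Hsd3b1 changed by only 0.21 after PMSG and was not called. Of the 28 mitotic genes 14 were lower after PMSG (median difference -0.46), such as Cenpf (-0.67 ± 0.10, adjusted p = 0.000952) and Cenpe (-0.67 ± 0.10, adjusted p = 0.00105). For the 8 zona genes and 17 maternal-effect genes the contrast called 0 and 0, with median differences of -0.33 and -0.29. Of the 25 immediate early genes 3 were higher after PMSG (Fosl2, Dusp1 and Klf4), and the differences of Jun (-0.03), Nr4a1 (-0.06) and Btg2 (0.13) did not pass (adjusted p = 0.921, 0.842 and 0.618). Gpx3, Bmp2 and Ghr, which rose over untreated ovaries, differed between PMSG and E2 by -0.00083, 0.06 and 0.08 (adjusted p = 0.999, 0.892 and 0.884).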

How the data were processed

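Total RNA of ovaries was hybridised to Affymetrix Mouse Genome 430 2.0 arrays. Each probe set has 1 deposited intensity per array, on a linear scale. Per the submitters' processing notes the tool was MAS5. Its version and the normalization steps are not given in the sources used here, and no normalization was added. Precision is limited by the number of arrays.

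Of 45101 probe sets, 34945 with 1 gene symbol in the platform annotation were used (64 controls, 9160 without a symbol and 932 with several were left out), and the brightest stood for its gene. A gene was tested if at least 1 group mean of log2(signal + 8.58), the 10th percentile of all values, was above the median of 5.87. A model of 6 group means over all 18 arrays was used in limma (version 3.58.1, under R 4.3.3; moderated variances with a trend; residual df 12, prior df 3.67), two-sided, with Benjamini-Hochberg adjustment over 12712 genes and calls at 0.05. P-values set a difference of group means against the spread within groups, estimated from all 18 arrays. The fit was tested on simulated data.

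The members, gene lists and tests were chosen with earlier results of these data known. Named were the 16 largest rises and falls among called genes whose arrays did not overlap, the 8 smallest adjusted p-values in each direction, up to 8 members of each list with the smallest adjusted p and others needed for its roles, a panel of ovarian genes, and the 5 smallest p-values in each direction of the genotype difference and of PMSG minus E2. Panel genes not described above include Kit (-0.61), Esr1 (-0.44) and Vegfa (0.35), which were not called. Alternatives were other pseudocounts, filters, scaling, variance models, probe sets and a replicate block, and each array left out. Of 260 called genes in the lists or named, 98 had other tested probe sets, 155 in all, of which 102 were called the same way, 0 the opposite way, and 6 had the opposite sign.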

Additional observations from a re-analysis of the deposited data

How the results depend on the processing

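The 737 higher and 1515 lower calls stayed within 1.5 times of these counts under every change of pseudocount, filter, scaling, variance model and probe set. With 1 array left out they ran from 320 to 666 and from 548 to 1736. The 124 genes at least 2-fold higher became 70 with a pseudocount of 64, and the 69 at least 2-fold lower became 21. With 1 array left out these 2 counts ran from 85 to 132 and from 48 to 93. A larger pseudocount shrinks folds, most of all in dim genes. In the main fit the median log2 changes of these genes were 1.26 and -1.08, where 2-fold is 1 or -1. Which of the lost genes were dim was not tested. The genotype difference gave 0 calls, 2 with a pseudocount of 64, 3 with quantile normalization and 0 to 4 with 1 array left out. The 1421 calls of PMSG minus E2 became 609 to 1649 with 1 array left out. The replicate number as a block gave 676 higher and 1348 lower, 120 and 70 at least 2-fold, 0 for the genotype difference and 1201 for PMSG minus E2. Same-numbered PMSG and untreated arrays did not deviate together (correlations of -0.19, -0.21 and -0.13), so the numbers were not used as pairs. Positive correlations came from PMSG replicate 1 with untreated replicate 2 (0.30), 2 with 3 (0.31) and 3 with 1 (0.25). Whether arrays shared a day or a litter is not in the labels and was not tested. Of 260 called genes named or listed, 139 were called in every fit without 1 array. Without PMSG replicates 1, 2 and 3, 75, 82 and 33 calls ended, and without untreated replicates 1, 2 and 3, 109, 83 and 47. Of these genes Mcm6 and Septin11 changed sign in the settings run, to 0.0081 and 0.062 with the probe set of highest variance. Signs also turned in 9 genes that were not called. With 1 array left out their log2 changes ran over -0.024 to 0.014 for Foxo1, -0.067 to 0.25 for Fst, -0.087 to 0.27 for Gata4, -0.25 to 0.37 for Hsd17b1, -0.20 to 0.16 for Igf1, -0.19 to 0.0081 for Inha, -0.21 to 0.34 for Inhbb, -0.11 to 0.0062 for Kitl and -0.37 to 0.00067 for Runx1, and Fst was -0.17 with the probe set of highest variance. The cause of these turns was not tested. An untreated mean under 100 units was found in 39 of the 124 genes and in 4 of the 69, where the median of all values was 49.9 units. The dimmer a gene, the more its fold depends on the pseudocount.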

Other observations

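Genes of glycolysis and of heat shock also differed. Of 19 genes of glycolysis and its control 7 rose and 0 fell after PMSG in Pik3cd+/- ovaries (limma; median 0.35). Pdk4, the kinase that shuts pyruvate out of the citric acid cycle, had 873, 779.7 and 551 in the PMSG arrays, against 199, 254 and 199 in the untreated arrays (1.70 ± 0.26, adjusted p = 0.00104), and Pfkfb4, which sets the level of a glycolysis activator, 132, 118 and 186 in the PMSG arrays, against 89.0, 91.7 and 82.1 in the untreated arrays (0.66 ± 0.14, adjusted p = 0.00603). Aldoa, Pgam1, Ldha, Pgk1 and Pkm rose by 0.40, 0.43, 0.36, 0.35 and 0.39 (adjusted p from 0.0106 to 0.0459), and PMSG replicate 3 was the brightest in all 5. The call of Pgam1 ended without untreated replicate 1 (adjusted p = 0.0524), those of Ldha and Pgk1 without any 1 of PMSG replicate 3 or untreated replicates 1, 2 or 3 (adjusted p up to 0.0804), and that of Pkm without PMSG replicate 2 or 3 or untreated replicate 1, 2 or 3 (adjusted p up to 0.156). Without PMSG replicate 3 the changes of Aldoa, Ldha, Pgk1 and Pkm were 0.26, 0.21, 0.20 and 0.21, and 4 genes of the list were called. Without untreated replicates 1, 2 and 3 there were 3, 5 and 4. Of 10 heat shock genes Hspa1a (0.53) and Hspa1b (0.90) rose, and Hsp90aa1 (-0.37) and Hsph1 (-0.72) fell. A second probe set of Hsp90aa1 gave -0.04. The first 2 calls ended without 1 or more of PMSG replicates 1 and 2 and untreated replicates 1 and 2 (adjusted p up to 0.165).

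Of 18 genes of the BCL2 family and apoptosis 1 was called, the inhibitor Birc3, with 576, 621 and 586 in the PMSG arrays, against 994, 993 and 945 in the untreated arrays (-0.71 ± 0.17, adjusted p = 0.0126). Of 16 components of the PI3K pathway, Pik3r1, the regulatory subunit p85 alpha, rose by 0.51 on its brightest probe set and by 1.65, 1.41 and 0.55 on 3 others (adjusted p = 0.00103, 0.00168 and 0.0123), and the Akt phosphatases Phlpp1 and Phlpp2 fell by 0.36 and 0.31 (adjusted p = 0.031 for the brightest probe set of Pik3r1, 0.00895 and 0.0293). These 3 calls, of the brightest probe sets, ended without 1 or more of PMSG replicates 1 and 2 and untreated replicates 1, 2 and 3 (adjusted p up to 0.143). Of 12 prostaglandin genes Slco2a1, the prostaglandin uptake carrier, was called, with 273, 226 and 273 in the PMSG arrays, against 159, 182 and 179.9 in the untreated arrays (0.54 ± 0.10, adjusted p = 0.00355). Of 18 amino acid transporters the taurine transporter Slc6a6 rose by 0.54 ± 0.10, adjusted p = 0.00337 (dimmer probe sets gave 0.05 and 0.28, not called) and Slc7a5 by 0.41 ± 0.14, adjusted p = 0.0488. The call of Slc7a5 ended without any 1 of the 6 arrays (adjusted p up to 0.177). Of 16 genes of ER chaperones and stress Ddit3 was called lower (-0.41 ± 0.13, adjusted p = 0.0379), a call lost without PMSG replicate 1 or 2 or untreated replicate 1, 2 or 3 (adjusted p up to 0.132).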
